A study of Homo sapiens with 4 samples.

Results

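Gene-end peaks are the FOXK2 binding peaks that the deposited annotation placed at the end of a transcript, either around the transcription termination site (TTS) or in the 3′ UTR, the part of a messenger RNA that follows the coding sequence. They were taken as every row of the peak lists whose annotation begins with either class, and numbered 249 of 12471 peaks in replicate 1 (161 TTS and 88 3′ UTR) and 523 of 27281 in replicate 2 (346 TTS and 177 3′ UTR), or 772 of 39752 in all. Gene ends held 2.00% of the peaks of replicate 1 and 1.92% of those of replicate 2 (mean 1.96% ± 0.0562, SD, n = 2). The study mapped FOXK2 by chromatin immunoprecipitation and sequencing (ChIP-seq) in OVCAR5, an ovarian cancer cell line labelled high grade serous and derived from ascites, grown to passage 4 to 6 with no treatment named. Both libraries are biological replicates of this single condition, so the lists allow no contrast between conditions. Input libraries and reads were not analysed here, so neither the depth of the libraries nor a signal over input is known. Peaks of a list come from the same library and are not replicates: every interval and p-value below covers counting error over peaks only.

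FOXK2 is a forkhead transcription factor, a family that binds DNA through a winged-helix domain and recognises variants of a short core. TGTTTAC is the form the study gives for FOXK2. The study also found motifs of other forkhead factors enriched in its peaks, so a copy of the heptamer does not single out FOXK2. Transcript ends are where the nascent RNA is cleaved and polyadenylated while RNA polymerase runs on before it is released. The DNA just past a gene can also hold enhancers or the start of a neighbouring gene, so a peak placed at an end need not concern the transcript that names it. By default HOMER, the authors' peak software, calls a peak TTS when its centre lies from 100 bp before to 1000 bp past an annotated end; whether the defaults were kept is not given in the sources used here. That transcript is called the host here.

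Of the 12 TTS and 8 3′ UTR pairs with the best mean score percentile over both lists, the 10 that held the heptamer in both peaks are shown first, since the position and strand of the heptamer are taken up below. Each line gives 27 bases of hg38 read 5′ to 3′ on the strand that carries TGTTTAC, with the heptamer in capitals. In these 10 pairs that was also the strand of the host, while the 3′ UTR pairs of NR3C1 and MIPOL1, which scored above FAM99B but fell outside the 8 best 3′ UTR pairs, carried it on the opposite strand. GOT1, MIR4756, TUBA4A, USP3-AS1, PYDC5 and FAM99B are TTS hosts, and the others are 3′ UTR hosts.
GOT1 (chr10:99395995-99396021, minus strand): tgtcattcctTGTTTACacttttccac
MIR4756 (chr20:54067801-54067827, minus strand): aggtgttgctTGTTTACttggtgacta
SH3PXD2A (chr10:103599032-103599058, minus strand): tgtgtggtcaTGTTTACattgtgacat
LINC02983 (chr7:5426823-5426849, minus strand): tcccagtcgcTGTTTACtcagcgactg
TUBA4A (chr2:219249422-219249448, minus strand): acagggccccTGTTTACtcagcagagt
TNFRSF8 (chr1:12143817-12143843, plus strand): ggaaggctgcTGTTTACtcatcgggca
SOX4 (chr6:21597813-21597839, plus strand): aatttctccaTGTTTACacttcaatct
USP3-AS1 (chr15:63587681-63587707, minus strand): catgcccactTGTTTACattattgtct
PYDC5 (chr1:158999040-158999066, minus strand): atggtttctaTGTTTACatgatttcta
FAM99B (chr11:1682456-1682482, minus strand): aggacctcttTGTTTACcattcaccta

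The pairs were chosen for a heptamer inside both peaks, so its closeness to the centres is a description. In GOT1 the middle of the heptamer was 4 bp before the peak centre of replicate 1 and 6 bp past that of replicate 2, in genome coordinates. In SOX4 it lay 50 and 18 bp past the centres, and in MIR4756 62 bp past the centre of replicate 1 and 13 bp before that of replicate 2.

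Gene ends of both classes were found in both lists. A pair of peaks overlapping by at least 1 bp, with a gene-end annotation in each list, was found 168 times, which is 67.5% of the gene-end peaks of replicate 1 and 32.1% of those of replicate 2. Of these pairs, 109 were TTS in both lists, 56 were 3′ UTR in both and 3 changed class between the lists (SLC45A4, CUEDC1 and HPD, named after their values were seen). Both lists named the same host in all 168 pairs. The median distance between the centres of such a pair was 30.5 bp. Another 5 gene-end peaks of replicate 1 and 4 of replicate 2 overlapped a peak of another class, such as the replicate 1 peak past the end of BBS7, whose partner was annotated to a promoter and which lay 298 bp from the start of CCNA2, the gene of cyclin A2.

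Scores of paired peaks moved together. HOMER scales its peak score to each library, so a score was ranked only against its own list and is given as a percentile there. Over the 168 pairs the percentiles correlated with a Spearman's rho of 0.825 (0.814 in TTS pairs, 0.808 in 3′ UTR pairs), which describes peaks drawn from the same 2 libraries. Both percentiles were above 90 in 14 pairs, and both peaks stood in the first 1000 ranks of their lists in 9.

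**Figure D1:**
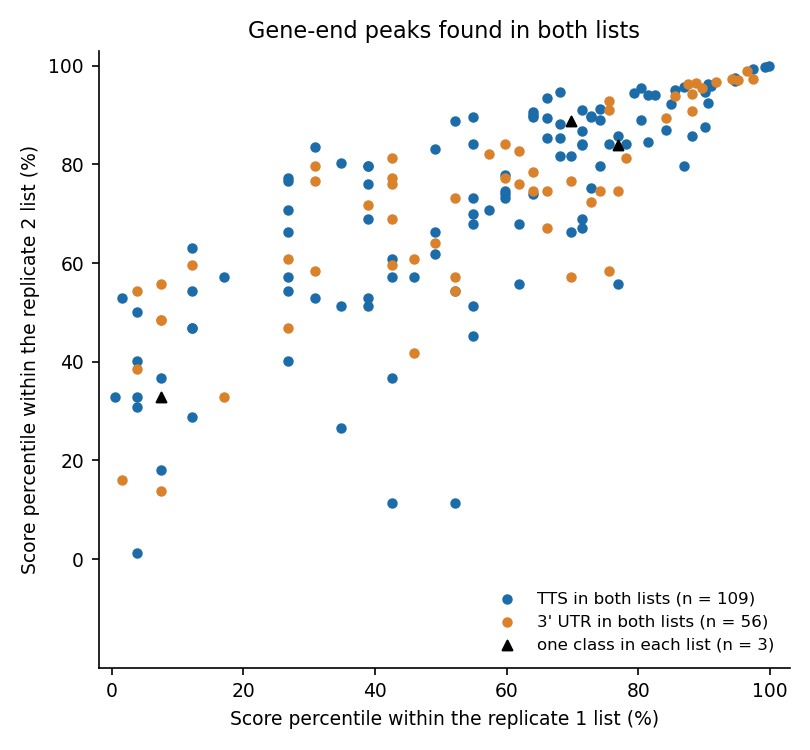
Score percentile of each gene-end peak pair in the replicate 1 list (x axis, %) and in the replicate 2 list (y axis, %), 1 point per pair, coloured by class with triangles for the 3 pairs of mixed class. The 14 pairs above 90 in both lists lie together at the top right, and pairs of low percentile in replicate 1 spread widely in replicate 2.

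The strongest TTS pair lay past the end of TMEM62, a transmembrane protein gene, at chr15:43185284-43185494 in replicate 1. Its score was 49.8 in replicate 1 (rank 14) and 84.5 in replicate 2 (rank 25), far above the median TTS scores of 5.85 and 7.29. The peak centre was 245 bp past the annotated end of TMEM62, but 121 and 107 bp from the start of CCNDBP1, the gene of a cyclin D1 binding protein, in the deposited distances. It held no TGTTTAC near its centre in either list. GOT1, which encodes the cytosolic aspartate aminotransferase, came next, with scores of 29.1 and 61.7 (ranks 99 and 76). Here the centre was 858 bp past the host's end, while the nearest deposited start, that of GOT1 itself, was 34761 bp away in replicate 1. In GENCODE the nearest start was 7737 bp from the GOT1 peak and 14 bp from the TMEM62 peak of replicate 1.

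The other 10 of the 12 best TTS pairs were at MIR4756, TUBA4A, TMEM253, IMP3, LOC100132356, USP3-AS1, PYDC5, CWC25, CMIP and FAM99B. At MIR4756, a microRNA gene, the scores were 19.4 and 43.4 (ranks 310 and 214). TUBA4A encodes an alpha-tubulin and had scores of 14.5 and 27.7, and its nearest start was that of STK16, 3561 bp away in replicate 1. IMP3, which encodes a protein of the U3 small nucleolar ribonucleoprotein, had scores of 11.9 and 23.6. At CWC25, a splicing factor gene, the scores were 10.6 and 22.5 and the start of PIP4K2B lay 358 and 289 bp away. FAM99B, a long noncoding RNA gene, had the lowest replicate 2 percentile of the 12, at 87.6 beside 90.1 in replicate 1. TGTTTAC was present in both peaks of 6 of the 12 pairs. In GENCODE a start lay 9 bp from the replicate 1 centre at CWC25, 169 bp at LOC100132356 and 274 bp at USP3-AS1. The distance was 282 bp at TMEM253, 733 bp at MIR4756 and 923 bp at PYDC5. At IMP3, FAM99B, TUBA4A and CMIP it was 1211, 3152, 3536 and 7846 bp.

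Among 3′ UTR pairs SH3PXD2A led, with scores of 16.8 and 38.8 (ranks 438 and 277). It encodes TKS5, a scaffold protein of invadopodia, and the peaks lay in the last of the 14 exons of the named transcript, at chr10:103598923-103599133 in replicate 1. The nearest deposited start belonged to NEURL1-AS1, at a distance of -81586 bp, that is, upstream of it. AVL9 followed with scores of 19.2 and 26.8 (ranks 317 and 743), in the last of 16 exons. LINC02983, whose named transcript has a single exon, had scores of 14.9 and 26.3.

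SLC11A1, which encodes a phagosomal metal transporter, had scores of 14.1 and 26.6, and CNNM3, of a family linked to magnesium transport, 12.5 and 24.7. TNFRSF8 encodes the receptor CD30 and had scores of 11.5 and 21.9. SOX4, the gene of a transcription factor of the SOX family with a single exon, had scores of 11.1 and 23.8, and its own start was the nearest, 4035 bp away in replicate 1. SUN1 encodes an inner nuclear membrane protein and closed the 8 best pairs, with scores of 10.8 and 23.6. All 8 lay above the 87th percentile of replicate 1 and above the 95th of replicate 2, and 4 of them held TGTTTAC in both lists.

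The strongest gene-end peaks without a partner in the other list were as follows. In replicate 1 they lay at MIR5188 (score 8.11, rank 3127), PLCB3 and CLMN (both 6.79, rank 4624). In replicate 2 they included PRSS36 (score 19.5, rank 1670) and EML4-AS1 (18.4, rank 1955). None of the 9 gene-end peaks in the first 1000 ranks of replicate 1, nor of the 13 in those of replicate 2, lacked a partner, beside 99.6% and 98.3% of all peaks at those ranks that had one. These ranks held 3.61% and 2.49% of gene-end peaks and 8.12% and 3.69% of all peaks.

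Recovery in the other list was next compared between gene-end and other peaks. A peak of the other replicate overlapped 173 of 249 gene-end peaks in replicate 1 (69.5%, Wilson 95% interval 63.5% to 74.9%), beside 74.9% of all peaks of that list. In replicate 2 the share was 172 of 523 (32.9%, 29.0% to 37.0%), beside 34.2% of all peaks. The difference from all other peaks was -5.55 percentage points in replicate 1 (Newcombe 95% interval -11.6 to -0.107, adjusted p = 0.109) and -1.38 points in replicate 2 (-5.31 to 2.79, adjusted p = 0.68, two-sided Fisher's exact test, adjusted with Benjamini-Hochberg over 12 tests). Neither passed the threshold of 0.05. Against promoter peaks, a comparison chosen after seeing the data, gene-end peaks were recovered less often in both lists, at 69.5% against 79.1% in replicate 1 (adjusted p = 0.0013) and 32.9% against 43.9% in replicate 2 (adjusted p = 2.7e-06, Fisher's exact test, adjusted over 8 added tests). Promoter peaks also had higher score percentiles, with medians of 59.7 and 64.1, beside 45.8 and 48.5 for gene-end peaks, and the part of the score in this difference was not tested.

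Recovery of TTS and 3′ UTR peaks did not differ past the threshold in either list. In replicate 1, 114 of 161 TTS peaks (70.8%) and 59 of 88 3′ UTR peaks (67.0%) had a partner, a difference of 3.76 percentage points (-7.86 to 15.97, adjusted p = 0.68, Fisher's exact test). In replicate 2, 33.2% and 32.2% had one, a difference of 1.03 points (-7.59 to 9.27, adjusted p = 0.92, Fisher's exact test). These intervals leave room for differences of several points either way.

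**Figure D2:**
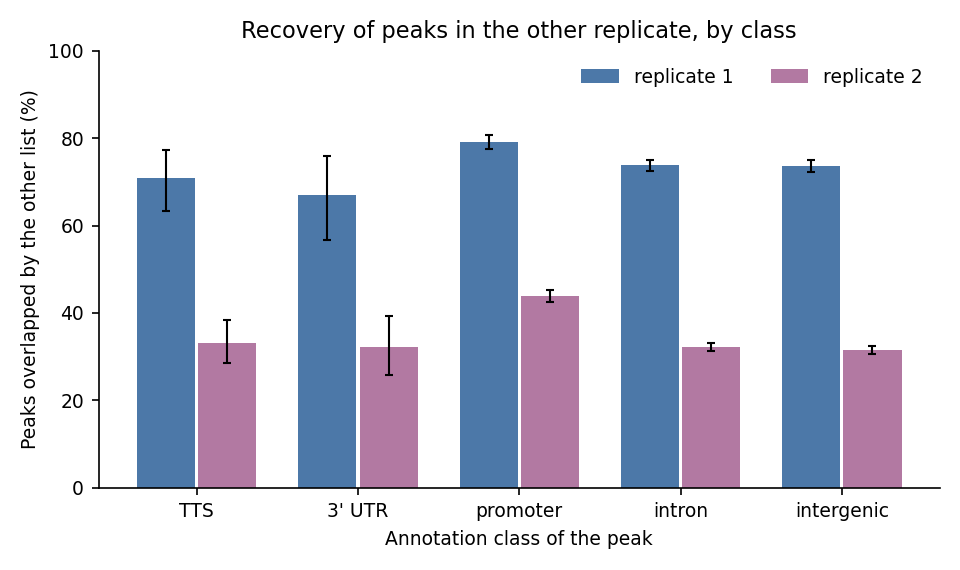
Share of peaks overlapped by a peak of the other replicate's list (y axis, %), for TTS, 3′ UTR, promoter, intron and intergenic peaks of each replicate, with Wilson 95% intervals as error bars. TTS and 3′ UTR bars sit near the intron and intergenic bars and below the promoter bars, at 70.8% and 67.0% beside 79.1% in replicate 1.

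Recovery depended on the score. Each list was divided at its median rank, with peaks tied at the median score split between the parts. Gene-end peaks of the upper part were overlapped by any peak of the other list in 92.2% of cases in replicate 1 and 57.0% in replicate 2, beside 90.5% and 57.1% of the other peaks of that part. In the lower part 67 of 134 gene-end peaks of replicate 1 were overlapped, beside 59.5% of other peaks, and in replicate 2 the shares were 10.7% and 11.5%. By class, the median score percentile was 49.1 for TTS and 42.6 for 3′ UTR peaks in replicate 1, and 49.98 and 46.9 in replicate 2.

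The hosts of TTS peaks were of several kinds. In replicate 1, 97 of 161 TTS peaks named a protein-coding host, 37 a long noncoding RNA, 15 a microRNA, 5 a small nuclear RNA, 4 a small nucleolar RNA and 3 a transcribed pseudogene. In replicate 2 the same kinds accounted for 224, 71, 18, 15, 6 and 11 of 346 TTS peaks, and 1 host could not be named. Short noncoding genes, which are microRNA, small nuclear and small nucleolar RNA genes, hosted 14.9% and 11.3% of TTS peaks. Of 3′ UTR peaks, 85 of 88 and 175 of 177 named a protein-coding host, and all lay in the last exon of the named transcript. Different genes were hit in most cases: 246 named hosts in replicate 1 and 511 in replicate 2, of which 169 occurred in both lists.

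Short noncoding hosts made up 14 of the 168 pairs, 8 of them microRNA genes. The small nuclear RNA genes RNU5A-1 and RNU5B-1, which encode U5 RNA of the spliceosome, and RNU4ATAC, which encodes U4atac RNA of the minor spliceosome, were among them (named after their values were seen). RNU5A-1 had scores of 9.24 and 13.5, and the centre of replicate 1 lay 262 bp past the start and 147 bp past the end of this short gene. RNU5B-1 had scores of 8.11 and 11.9, and RNU4ATAC 7.92 and 16.1. None of these 3 held TGTTTAC near its centre. In both lists 5 of the 14 pairs did, among them MIR4756, MIR6070 and SNAR-E, another small nuclear RNA gene. In a gene this short, a position at the end is also a position near the start, so these peaks cannot be told apart from start peaks.

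Most TTS peaks lay past the end of the host and most 3′ UTR peaks before it. Against the nearest GENCODE end of the host within 5000 bp, 138 of 151 TTS centres in replicate 1 (91.4%) and 285 of 330 in replicate 2 (86.4%) were past the end, by a median of 379 and 352 bp over all of them. The default limits of the class would fix this direction. For 3′ UTR peaks the medians were -377 and -206 bp, that is, before the end, and 28 of 83 and 62 of 171 centres lay past the nearest end, which can be that of a shorter transcript of the same gene. Some TTS peaks lay within another gene: 41.0% of centres in replicate 1 and 30.3% in replicate 2 were inside a different protein-coding gene, compared with 14.8% and 12.4% of 3′ UTR centres. Over all peaks, 54.8% and 54.3% of centres lay inside any protein-coding gene.

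**Figure D3:**
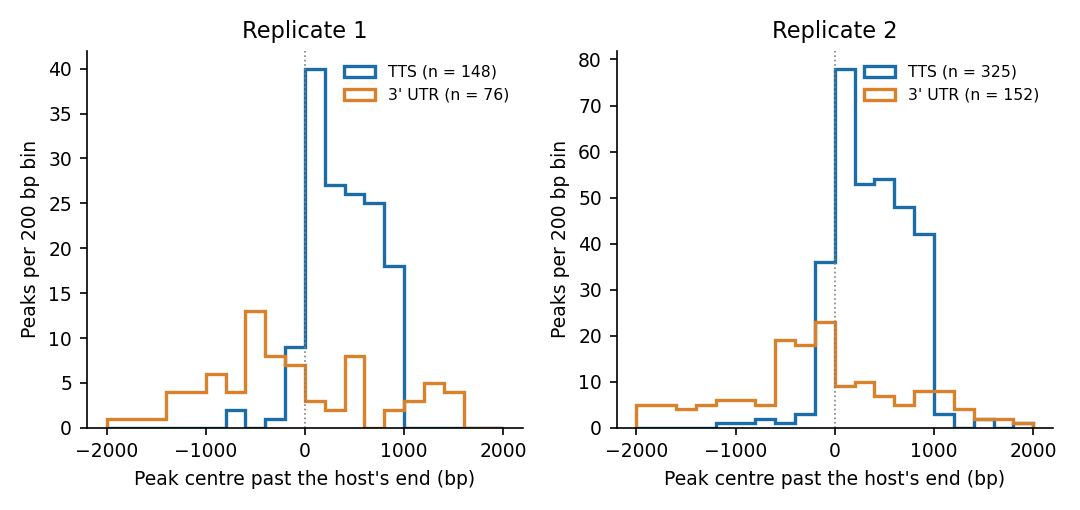
Number of gene-end peaks per 200 bp bin (y axis) by the distance of the peak centre past the nearest annotated end of the host (x axis, bp, negative values before the end), for TTS and 3′ UTR peaks of each replicate, with n the peaks drawn. Hosts within 5000 bp were used and the 3 TTS and 7 3′ UTR peaks of replicate 1 and 5 and 19 of replicate 2 beyond 2000 bp are not drawn. TTS peaks pile up from 0 to 1000 bp past the end, while 3′ UTR peaks spread on both sides.

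The nearest TSS in the deposited files was often that of a gene other than the host. This held for 69 of 161 TTS peaks (42.9%) and 52 of 87 3′ UTR peaks with a named host (59.8%) in replicate 1, and for 165 of 345 (47.8%) and 115 of 177 (65.0%) in replicate 2. Over both classes the share was 48.8% and 53.6%, so a list of genes made from the nearest start would name a different gene for about as many gene-end peaks as it would name the host. The nearest start was over 10000 bp away for 62.5% and 70.1% of 3′ UTR peaks and for 30.4% and 39.9% of TTS peaks, beside 57.1% and 62.1% of all peaks.

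Part of the TTS peaks stood beside a start. A deposited distance of over 100 and up to 1000 bp past the nearest TSS was found for 41 of 161 TTS peaks in replicate 1 and 68 of 346 in replicate 2 (25.5% and 19.7%, beside 6.24% and 5.02% of all peaks), and for none of the 88 and 177 3′ UTR peaks, which allows a share of up to 4.18% and 2.12% (upper Wilson limits). Of those TTS peaks, 23 of 41 and 37 of 68 had a short noncoding host. Some other classes were in that range more often than TTS peaks. The shares were 47.2% and 40% of exon peaks, 46.2% and 41.4% of peaks annotated as non-coding, and 94.9% and 94.4% of 5′ UTR peaks. With GENCODE transcript starts, 38.5% and 28.3% of TTS peaks lay within 1000 bp of a start, compared with 15.9% and 11.3% of 3′ UTR peaks and 34.1% and 29.5% of all peaks.

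In 11 of the 168 pairs the start of a different gene lay within that range of the replicate 1 peak centre. Besides TMEM62, TMEM253 and CWC25 these included PACSIN3, whose pair lay 133 and 203 bp past the start of ARFGAP2, and RNASEK (123 and 113 bp from BACC1), both named after their values were seen. TGTTTAC was found in both peaks of 1 of the 11 pairs, beside 58 of all 168 pairs (34.5%). Over all TTS peaks, the heptamer was present in 22.6% of those with a GENCODE start within 1000 bp and in 33.3% of the rest in replicate 1, and in 15.3% and 26.2% in replicate 2. G and C made up 57.2% and 54.4% of the bases around centres near a start, compared with 47.1% and 47.4% around the rest, and the part of base composition in the heptamer shares was not tested.

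The heptamer was far more frequent at gene-end peaks than beside them. TGTTTAC, on either strand and within 100 bp of the peak centre, was present in 76 of 249 gene-end peaks of replicate 1 (30.5%, 25.1% to 36.5%), and in 10 of 498 windows of the same size placed 2000 bp to each side (2.01%, 1.09% to 3.66%). The odds ratio was 21.4 (adjusted p = 8.5e-29, Fisher's exact test). In both lists the test pooled the control windows and did not match them to their peaks. In replicate 2, 136 of 523 peaks held it (26.0%, 22.4% to 29.9%), compared with 27 of 1046 control windows (2.58%), with an odds ratio of 13.3 (adjusted p = 2.7e-43, Fisher's exact test). Enrichment over control windows was already known for the lists as a whole, and the shares over all peaks were 30.5% and 28.2%. Gene-end peaks did not differ detectably from all other peaks, with differences of -0.021 percentage points in replicate 1 (-5.47 to 6.01, adjusted p = 1) and -2.20 points in replicate 2 (-5.82 to 1.76, adjusted p = 0.48, Fisher's exact test).

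This average hid differences among the other classes. Compared with promoter peaks, gene-end peaks held TGTTTAC more often, at 30.5% against 14.4% in replicate 1 (adjusted p = 3.5e-09) and 26.0% against 10.9% in replicate 2 (adjusted p = 2.1e-18, Fisher's exact test). Intron peaks held it in 35.2% and 32.4% and intergenic peaks in 36.7% and 33.0%. In replicate 2 gene-end peaks were lower than intron peaks, with a difference of -6.41 percentage points (-10.1 to -2.39, adjusted p = 0.0028), and lower than intergenic peaks, with a difference of -7.02 points (-10.7 to -2.99, adjusted p = 0.0013, Fisher's exact test). In replicate 1 the differences were -4.67 points (-10.2 to 1.46, adjusted p = 0.13) and -6.17 points (-11.8 to -0.0208, adjusted p = 0.057, Fisher's exact test), which did not pass. These class comparisons were chosen after seeing the data.

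**Figure D4:**
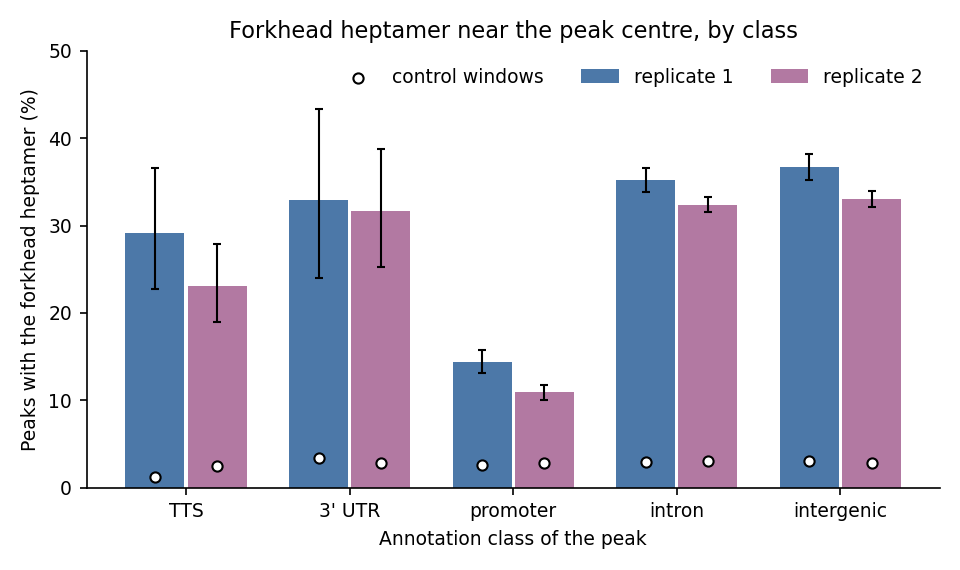
Share of peaks with TGTTTAC within 100 bp of the centre (y axis, %), for TTS, 3′ UTR, promoter, intron and intergenic peaks of each replicate, with Wilson 95% intervals as error bars, and the share of control windows 2000 bp away as open circles. TTS bars (29.2% and 23.1%) and 3′ UTR bars (33.0% and 31.6%) lie above the promoter bars (14.4% and 10.9%) and all circles lie below 4%.

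Between the classes no difference passed in replicate 1, where 47 of 161 TTS peaks (29.2%) and 29 of 88 3′ UTR peaks (33.0%) held the heptamer (difference -3.76 percentage points, -15.97 to 7.86, adjusted p = 0.68, Fisher's exact test). In replicate 2 the shares were 80 of 346 (23.1%) and 56 of 177 (31.6%), a difference of -8.52 points (-16.8 to -0.564) that missed the threshold after adjustment (adjusted p = 0.108, Fisher's exact test). With TGTTTNC, a looser form, the shares of replicate 2 were 39.0% and 50.8% and the difference of -11.8 points passed (adjusted p = 0.028, Fisher's exact test), whereas in replicate 1 its direction turned (47.8% and 45.5%). This p-value took the place of the TGTTTAC one among the 12 tests and was not adjusted for the number of alternatives tried.

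Within the peaks the heptamer lay at the centre. In 50 bp bins around the centres, replicate 1 had 10.8 copies per 100 gene-end peaks just before the centre and 15.3 just past it, and replicate 2 had 10.5 and 12.4. From 150 bp outwards no bin exceeded 1.72 copies per 100 peaks in either list. Of the 168 pairs, 58 held it within 100 bp of both centres, 3 of a single centre and 107 of neither, which the overlap of paired peaks largely fixes, since they cover the same DNA. Gene-end peaks found in both lists held it in 35.8% (replicate 1) and 34.3% (replicate 2), and those found in a single list in 18.4% and 21.9%. Scores moved with this: the median percentiles were 59.7 and 76.0 for gene-end peaks found in both lists and 24.3 and 32.9 for the rest. The heptamer share of gene-end peaks was also 38.3% and 31.1% in the upper part of each list by score and 23.9% and 21.3% in the lower part. Other peaks held it in 35.7% and 30.2% in the upper part and 25.4% and 26.2% in the lower. A higher share in the upper part was therefore not particular to gene ends. The part of the score in the difference between peaks found in both lists and in a single list was not tested.

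**Figure D5:**
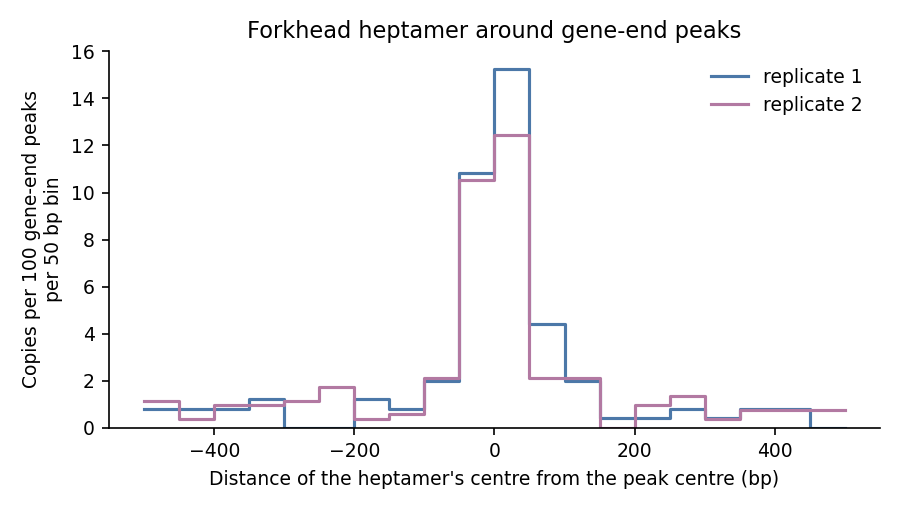
Copies of TGTTTAC on either strand per 100 gene-end peaks in 50 bp bins (y axis) by the distance from the peak centre (x axis, bp), for each replicate. Both lines rise above 10 copies within 50 bp of the centre and stay below 2.2 copies beyond 100 bp.

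In 3′ UTR peaks the heptamer was on the host's strand more often than on the opposite one, a pattern noticed in the data and given without a test. Among 3′ UTR peaks with copies on a single strand, 20 of 28 in replicate 1 (71.4%, 52.9% to 84.7%) and 39 of 56 in replicate 2 (69.6%, 56.7% to 80.1%) had TGTTTAC on the strand of the host. TTS peaks were more even, with 20 of 42 (47.6%) and 40 of 74 (54.1%). Over the 3′ UTRs of GENCODE coding transcripts, 58.4% of copies were on the gene's strand (57.2% to 59.6%), and over the 1000 bp past their ends 52.1% were. Both 3′ UTR intervals include 58.4%, so the shares were not distinguishable from that of 3′ UTRs at large at this number of peaks. Among the 10 pairs of best mean percentile with the heptamer at both centres and on a single strand in replicate 1, it was on the host's strand in 9, and over all 54 such pairs in 32 (59.3%).

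The AP-1 site TGACTCA, the target of FOS and JUN dimers, was also above control at gene ends. It was present in 31 of 249 gene-end peaks of replicate 1 (12.4%) and 2.01% of control windows (adjusted p = 4.4e-08), and in 85 of 523 of replicate 2 (16.3%) and 3.15% of control windows (adjusted p = 1.6e-18, Fisher's exact test). All peaks held it in 16.4% and 16.6%, and promoter peaks in 3.88% and 3.36%. Intron peaks held it in 19.8% and 19.9% and intergenic peaks in 21.8% and 20.2%, above gene-end peaks in both lists. Differences between classes were not tested for this site. It had been seen in these lists before, so the test is not independent support. USP3-AS1 held both motifs in both lists.

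Genes of pathways linked to FOXK2 were looked up among the hosts. Of 112 genes in 7 lists, covering endoplasmic reticulum stress and folding, stemness, autophagy and lysosome, glycolysis, AP-1 and immediate early genes, insulin and FOXO signalling, and targets the study named, 2 were hosts in replicate 1 and 3 in replicate 2 (1.79% and 2.68%), beside 0.898% and 1.95% of all protein-coding genes of the reference, and with so few hosts nothing is read from the difference. The lists of endoplasmic reticulum stress (20 genes), autophagy (21), glycolysis (19) and named targets (7) had none. KLF6, an immediate early zinc finger factor gene, was a TTS host in both lists, with scores of 6.23 and 9.52 and the AP-1 site in both peaks. FOXO3, the gene of another forkhead factor, was a TTS host in both, with scores of 4.15 and 8.77 at percentiles of 12.2 and 63.0, and both peaks held TGTTTAC, within 100 bp of the centre in replicate 1 and further out in replicate 2.

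SOX9, a stemness-list gene, was a TTS host in replicate 2 only (score 6.99, rank 14263), with no partner in replicate 1. MAP1LC3B, which encodes the autophagy protein LC3B, was not a host but the nearest start of a pair in the 3′ UTR of ZCCHC14, 15537 and 15520 bp away, with scores of 6.79 and 12.8.

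Genes with a peak at their end also had a promoter peak at times. A promoter peak was present in the same list for 29 of 180 protein-coding host genes in replicate 1 (16.1%, 11.5% to 22.2%) and 101 of 391 in replicate 2 (25.8%, 21.7% to 30.4%), beside 11.8% and 21.0% of all protein-coding genes. Among protein-coding genes with a peak in the promoter, an exon or an intron, a set that includes every gene with a promoter peak, the shares were 47.5% and 50.1%. Gene-end peaks lay closer to the next peak of their list than others did, with median distances of 29600 bp against 44104 bp in replicate 1 and 18535 bp against 23556 bp in replicate 2, values given without a test. Their GC content averaged 50.4% ± 11.04 and 48.4% ± 10.4 (SD over peaks), beside 49.8% and 48.8% for other peaks. On chromosome 8 lay 8 and 16 gene-end peaks (3.21% and 3.06%, beside 4.43% and 4.13% of all peaks), with median score percentiles of 41.5 and 68.5.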

How the data were processed

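FOXK2 ChIP-seq peaks of OVCAR5 were read from the deposited lists of 2 replicates. Per the methods and the submitters' processing notes, the authors mapped single-end reads to hg38 with Bowtie2 2.2.6 and called and annotated peaks with HOMER 4.10. The authors' peak score, focus ratio (a fraction) and signed distance to the nearest TSS were used as deposited. No threshold was added. Peaks spanned 210 and 256 bp between start and end.

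Hosts were matched by transcript accession to the RefSeq reference table or, where missing, to names in the deposited lists, for 248 and 522 peaks. Transcript ends and starts came from GENCODE release 44, and sequence from hg38. The heptamer TGTTTAC was searched on both strands, and so were the AP-1 site TGACTCA and TGTTTNC, a looser form that includes every TGTTTAC. Shares carry Wilson and differences Newcombe 95% intervals, and 12 Fisher's exact tests were adjusted together (8 added ones separately). Members, lists and tests were chosen with earlier results of these data known. Named genes are the hosts of the 12 TTS and 8 3′ UTR pairs with the best mean percentile, the 3 strongest peaks per list without a partner, and listed genes hosted in both lists; some are not reported here. NR3C1, MIPOL1, BBS7, MIR6070, SNAR-E, SOX9, ZCCHC14, SLC45A4, CUEDC1, HPD, the U-RNA genes, PACSIN3 and RNASEK were named after their values were seen. Steps were tested on simulated data. Python 3.11.15, SciPy 1.17.1, pandas 2.3.3 and pysam 0.24.0 were used. Alternatives tried were stricter overlaps, the higher-scoring peaks, lists of equal length, other motif windows and forms, named chromosomes, other comparison classes and leaving out a replicate.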

Additional observations from a re-analysis of the deposited data

How the results depend on the processing

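Of 109 alternative values, 86 kept their direction and side of the threshold, stayed within the spread between replicates or, for the number of pairs, stayed within 1.5 times the main count. Some of the 86 could not come out otherwise. A single replicate always lies within that spread of the mean. Lists of equal length leave the shorter list of replicate 1 whole, so its motif shares cannot change. The 4 enrichments over control windows passed under every alternative run. Differences that missed the threshold turned in sign under some settings without passing it, and the causes were not tested. With both lists limited to their upper part by rank, so that a partner also had to stand there, the overlapped share of gene-end minus other peaks was 2.04 percentage points in replicate 1 and 0.622 in replicate 2, TTS minus 3′ UTR was -10.1 and -1.07, the TGTTTAC share of gene-end minus other peaks was 2.59 and 0.827, and TTS minus 3′ UTR in replicate 1 was 4.61. With lists of equal length, the overlapped share of TTS minus 3′ UTR was -3.40 and -4.61, and the TGTTTAC share of gene-end minus other peaks in replicate 2 was 1.36. With TGTTTNC, gene-end minus other peaks in replicate 1 was 1.15 and TTS minus 3′ UTR was 2.37 in replicate 1 and -11.8 in replicate 2 (adjusted p = 0.028, Fisher's exact test). That p-value was not adjusted for the number of alternatives tried. With a single class as the comparison, chosen after seeing the data, differences passed: the overlapped share minus that of promoter peaks was -9.67 and -11.0, the TGTTTAC share minus that of promoter peaks was 16.1 and 15.1, and in replicate 2 it was -6.41 against intron and -7.02 against intergenic peaks. In the upper part, gene ends held 1.84% of peaks, with a median percentile of 44.6 after ranking again within that part, and 102 pairs were left. Lists of equal length left 133 pairs, an overlap of 50% of both peaks 155 and centres within 100 bp 152, of 168. With the gene of the nearest annotated end as host, the nearest TSS was another gene's for 56.5%. Without replicate 1 or 2 the share of gene-end peaks was 1.92% or 2.00%. No paired analysis was possible because both lists come from a single condition. The unknown depth limits what a missing partner shows, and the 88 3′ UTR peaks of replicate 1 leave wide intervals.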
